A study of Mus musculus with 12 samples.

Results

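The genes described here are 33 that make sterols and fatty acids or regulate that synthesis, out of 12955 genes measured in mouse PGCLCs. These primordial germ cell-like cells are made in culture and stand in for the embryo's germline founders. The set is a list of gene symbols that was drawn up with earlier results of these data known. It holds 18 enzymes of cholesterol synthesis in pathway order and 6 genes around the transcription factors SREBP1 and SREBP2. The other 9 are genes of fatty acid synthesis, elongation and desaturation. All 33 were in the table, and all 33 had a level of 1 or more in at least 2 libraries, as did 12059 genes in all. Levels are FPKM (fragments scaled to transcript length and to sequencing depth), so they can be compared between genes.

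The study follows the gene Tex10, whose nuclear protein has known roles in ribosome assembly and in stem cells, in PGCLCs grown from J1 male mouse embryonic stem cells and sorted from embryoid bodies for CD61 and SSEA1. The 12 libraries form 6 groups of 2: EV and OE at day 2, EV and OE at day 6, and cells given DMSO or dTAG13 for 2 days, at day 2. EV and OE are not spelled out in the labels, which name no clone, promoter or tagged allele. dTAG13 is a small molecule that makes the cell degrade proteins carrying a matching tag, and DMSO serves as the vehicle control. Nothing in the labels says that the 2 libraries of a group came from separate cultures, so p-values measure the spread between these libraries, which may be technical.

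Cells build cholesterol from acetyl-CoA through mevalonate, farnesyl diphosphate, squalene and lanosterol, and fatty acids from acetyl-CoA through malonyl-CoA. Both routes are controlled by SREBP proteins, which SCAP carries from the endoplasmic reticulum to the Golgi for cleavage when sterols are low, and which INSIG proteins hold back when sterols are high. Most enzymes of both routes and INSIG1 itself are direct SREBP targets, and NF-Y, which binds CCAAT boxes, and SP1, which binds GC boxes, often act beside SREBP at their promoters.

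Tex10 itself was at 119 and 145 FPKM with EV at day 2, where OE gave 403 and 378. At day 6 EV gave 65.7 and 81.5 and OE 259 and 269. It was at 61.7 and 56.8 with DMSO and at 45.2 and 36.5 with dTAG13. Tex10 protein was not measured here, and the labels do not name the protein that dTAG13 targets. The dTAG13 replicate 1 library stood apart: 2008 genes were listed at 0 there, against 18 to 127 in the 11 other libraries. None of the 33 genes was at 0 in any library. Because all 6 groups share 1 estimate of the spread, that library touches every test, and counts are given with and without it. Germ cell markers were present: Prdm14 read from 14.9 to 36.6 FPKM and Tfap2c from 36.7 to 121 over the libraries, while Itgb3, which encodes CD61, read from 0 to 4.39. Fut4, tied to SSEA1, was not analysed here. In bulk RNA, fewer cells of a type and less RNA per cell cannot be told apart.

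Promoter sequence is shown first because many of the 33 genes share a motif while their levels went different ways. RefSeq promoters (GRCm38, the mm10 assembly) were at hand for 26 of the 33 genes, in 34 windows of 250 bases upstream of a start. The CCAAT box (CCAAT or, on the other strand, ATTGG) was in 21 of the 34 windows (61.8%), against 33.9% of all 32851 windows and 35.7% of the 11739 windows of genes tested here. The GC box (GGGCGG or CCGCCC) was in 24 of 34 (70.6%), against 32.7% of all windows and 58.4% of those of tested genes. The classic sterol response element, searched as TCACNCCAC or GTGGNGTGA, was in 1 of 34, the Hmgcs1 promoter, against 1.05% of all windows. These are letter matches and not shown to be bound, and sterol response elements vary in sequence, so a window without these letters may still hold such a site. The 5 promoters below belong to genes on different sides of the results: Hmgcs1 passed the test in no comparison, Mvk, Ebp and Fasn fell from day 2 to day 6 in OE, and Insig1 rose from day 2 to day 6 in EV. Capitals mark CCAAT boxes on either strand and, in Hmgcs1, the sterol response element. In Fasn the CCAATTGG run holds 2 overlapping matches. Each is written 5′ to 3′ on the gene's strand, without bases that the annotation places in an exon. Their positions are chr13:119690101-119690350, plus strand, for Hmgcs1, chr5:114444061-114444268, plus strand, for Mvk, chrX:8193513-8193762, minus strand, for Ebp, chr5:28071162-28071362, plus strand, for Insig1, and chr11:120824548-120824797, minus strand, for Fasn.
Hmgcs1: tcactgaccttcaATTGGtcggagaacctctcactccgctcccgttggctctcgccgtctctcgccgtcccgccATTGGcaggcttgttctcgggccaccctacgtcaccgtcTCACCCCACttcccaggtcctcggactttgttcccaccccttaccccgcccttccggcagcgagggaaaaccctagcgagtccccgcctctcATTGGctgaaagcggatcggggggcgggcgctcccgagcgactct
Mvk: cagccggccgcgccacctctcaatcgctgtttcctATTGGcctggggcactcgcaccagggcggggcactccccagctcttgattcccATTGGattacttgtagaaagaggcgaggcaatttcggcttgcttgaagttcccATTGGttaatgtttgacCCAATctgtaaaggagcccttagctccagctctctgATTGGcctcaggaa
Ebp: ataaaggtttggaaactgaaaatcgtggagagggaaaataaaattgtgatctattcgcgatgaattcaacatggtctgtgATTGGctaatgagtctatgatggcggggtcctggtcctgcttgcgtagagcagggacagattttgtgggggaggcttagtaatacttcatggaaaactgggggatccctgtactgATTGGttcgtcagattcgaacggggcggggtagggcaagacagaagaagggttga
Insig1: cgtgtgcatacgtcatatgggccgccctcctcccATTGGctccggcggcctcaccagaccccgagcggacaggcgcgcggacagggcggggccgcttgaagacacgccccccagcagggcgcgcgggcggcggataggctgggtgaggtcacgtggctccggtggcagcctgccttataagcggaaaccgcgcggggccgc
Fasn: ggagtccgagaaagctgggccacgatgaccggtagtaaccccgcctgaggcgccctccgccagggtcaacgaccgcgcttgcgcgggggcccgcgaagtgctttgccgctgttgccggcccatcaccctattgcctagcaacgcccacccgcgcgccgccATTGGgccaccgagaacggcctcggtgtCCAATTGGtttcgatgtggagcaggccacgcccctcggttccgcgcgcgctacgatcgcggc

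The levels of the 33 genes spanned a wide range. Acly, which makes cytosolic acetyl-CoA from citrate, averaged 254 FPKM over the 12 libraries, and Fdps, which makes farnesyl diphosphate, 238. Acat2, a thiolase at the pathway's first step, followed at 101. The lowest were Stard4, a sterol carrier protein gene, at 4.37, Hsd17b7, a late sterol ketone reductase, at 4.98, and Acaca, which makes malonyl-CoA, at 5.44. The lowest library for a gene was a dTAG13 library for 28 of the 33 genes (12 in replicate 1 and 16 in replicate 2). The highest library was a day 6 library for 19 genes and day 2 OE replicate 1 for 10.

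**Figure D1:**
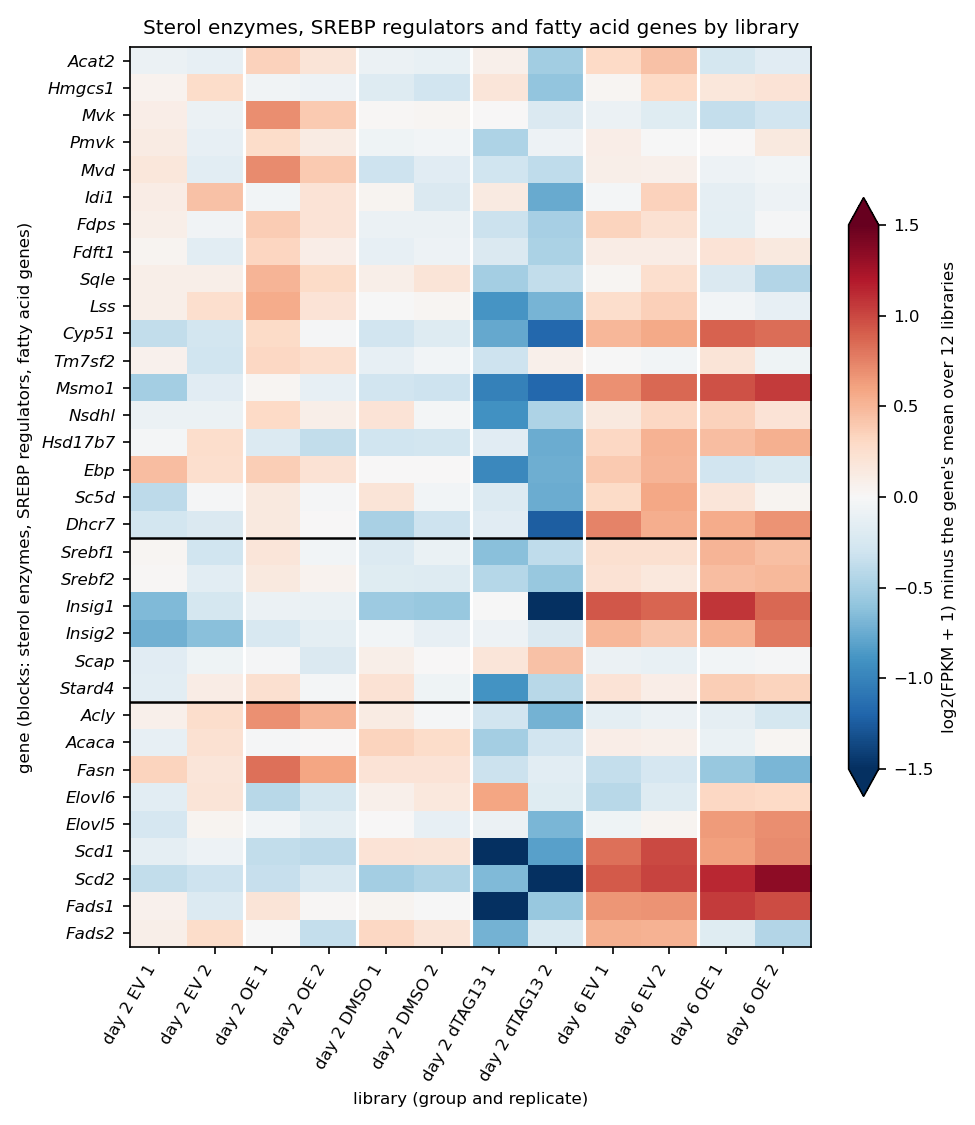
Each row is a gene and each column a library; colour is log2(FPKM + 1) minus the gene's mean over the 12 libraries, red above and blue below, saturating at 1.5, with the sterol enzymes in pathway order at the top, then SREBP regulators, then fatty acid genes. The dTAG13 columns hold the lowest library of 28 of the 33 genes, and Msmo1, Insig1, Scd1 and Scd2 are high in all 4 day 6 libraries.

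From day 2 to day 6 in EV cells, 3 enzymes after lanosterol, both Insig genes and both Scd genes rose, while Fasn fell and no mevalonate enzyme passed the test. Of the 33 genes, 7 rose and 1 fell (24.2%) by limma's test at an adjusted p (Benjamini-Hochberg over all 12059 genes) below 0.05. Of all tested genes 23.7% changed at that threshold (13.3% higher, 10.5% lower), so the share was near the background. The median log2 change of the 33 was 0.17, against 0.04 over all genes. All changes printed are differences of log2(FPKM + 1), and the added 1 makes those of low genes smaller. In 18 genes both day 6 libraries lay above both day 2 libraries, as in 39.9% of all genes, and in 4 below, as in 33% of all genes. Leaving out any 1 of the 4 EV libraries leaves 1 library in a group. Fewer of the 33 genes then passed, as did fewer of all genes. The median log2 change of the 33 stayed between 0.18 and 0.25.

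Msmo1, which removes methyl groups from lanosterol's products (chromosome 8, 64718139 to 64733792), read 49.5 and 63 FPKM at day 2 and 115 and 130.0 at day 6 in EV. Both day 6 values lay far above both day 2 values. The change was 1.12 (SE 0.14, adjusted p = 0.000581), a 2.18-fold higher mean FPKM. Cyp51, the lanosterol demethylase (chromosome 5, 4081145 to 4104746), read 16 and 17.1 at day 2 and 29.9 and 31.5 at day 6, a rise of 0.85 (SE 0.17, adjusted p = 0.00581). Dhcr7, which carries out a last reduction to cholesterol (chromosome 7, 143823145 to 143848410), read 14 and 14.7 at day 2 and then 29.5 and 25.5 at day 6, a rise of 0.89 (SE 0.28, adjusted p = 0.0447). In these 3 genes the day 2 and day 6 libraries did not overlap. The other enzymes after lanosterol, Tm7sf2, Nsdhl, Hsd17b7, Ebp and Sc5d, had changes between 0.10 and 0.64, and none passed.

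Of the 7 enzymes from acetyl-CoA to farnesyl diphosphate (Acat2, Hmgcs1, Mvk, Pmvk, Mvd, Idi1 and Fdps), 0 passed in EV. Of them 2 had an unadjusted p under 0.05, as had 4437 of all 12059 genes. Hmgcs1, which makes HMG-CoA, read 76.5 and 89.4 FPKM at day 2 and 75 and 90.5 at day 6. Mvd, the mevalonate diphosphate decarboxylase, read 59.2 and 47 at day 2 and 55.9 and 55.7 at day 6. For both genes the libraries of the 2 days overlapped. The 3 enzymes between farnesyl diphosphate and lanosterol, Fdft1, Sqle and Lss, also passed in no case (0 with an unadjusted p under 0.05), with changes from 0.05 to 0.17.

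Among the regulators in EV, Insig1 (chromosome 5, 28071363 to 28078662) read 11.8 and 15.8 FPKM at day 2 and 37.6 and 36 at day 6. Its change was 1.36 (SE 0.37, adjusted p = 0.025), a 2.66-fold higher mean. Insig2, its paralogue (chromosome 1, 121304353 to 121332589), read 5.48 and 5.88 at day 2 and then 14 and 13.1 at day 6, a rise of 1.13 (SE 0.17, adjusted p = 0.00172). The day 6 values of both genes stood clear of the day 2 values. Scap, which escorts SREBP, read 18.8 and 20.3 at day 2 and 19.9 and 19.6 at day 6, within the day 2 spread.

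Among the fatty acid genes in EV, Scd2, a stearoyl-CoA desaturase (chromosome 19, 44293674 to 44306864), read 47.5 and 49.5 FPKM at day 2 and 118 and 126 at day 6. It rose by 1.31 (SE 0.23, adjusted p = 0.00314), or 2.51-fold in mean FPKM. Its neighbour on chromosome 19 and close relative Scd1 (chromosome 19, 44394455 to 44407879) rose by 1.01 (SE 0.27, adjusted p = 0.0234), from 5.46 and 5.77 to 11.6 and 13.1 FPKM. The paralogues are similar in sequence, and how the authors' counting shared reads between them is not given in the sources used here. Fasn, the fatty acid synthase gene (chromosome 11, 120805846 to 120824547), went the other way, from 73 and 65.3 FPKM to 44.5 and 48, a change of -0.57 (SE 0.12, adjusted p = 0.009). Of the 9 fatty acid genes, 2 rose, 1 fell and 6 did not pass.

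In OE cells the calls among the early sterol enzymes were falls, and most of those among the late ones were rises. Of the 33 genes, 8 rose and 7 fell (45.5%), against a background of 32.3% of all genes (17.5% higher, 14.7% lower). Of the 7 enzymes up to farnesyl diphosphate 3 fell and 0 rose, and of the 8 enzymes after lanosterol 3 rose and 1 fell. The median log2 change was -0.38 for the former and 0.31 for the latter, against 0.08 over all genes. The groups did not overlap in 26 of the 33 genes, as in 81.9% of all genes, with day 6 higher in 15 (46% of all genes) and lower in 11 (35.9%). Leaving out any 1 of the 4 OE libraries leaves 1 library in a group. Fewer of the 33 genes then passed, as did fewer of all genes. The median log2 change of the 33 was 0.18 without day 2 OE replicate 1 and -0.02 without day 2 OE replicate 2. It was 0.04 without day 6 OE replicate 1 and 0.13 without day 6 OE replicate 2.

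Mvk, mevalonate kinase (chromosome 5, 114444269 to 114460591), read 28.8 and 23.1 FPKM at day 2 and 13.4 and 14.1 at day 6 in OE, a change of -0.86 (SE 0.16, adjusted p = 0.00291). Mvd (chromosome 8, 122433601 to 122443422) fell from 86.3 and 69.4 to 50 and 51, by 0.61 (SE 0.14, adjusted p = 0.0097). Sqle, squalene epoxidase and a slow step of the pathway (chromosome 15, 59315077 to 59331192), fell from 105 and 90.6 to 63.6 and 54.2, by 0.72 (SE 0.13, adjusted p = 0.00242). Mvk, Mvd and Sqle had higher values in day 2 OE than in any other group, with no overlap. Ebp, the sterol isomerase (chromosome X, 8185329 to 8193512), fell from 44.2 and 39.5 to 27.6 and 28.8, by 0.55 (SE 0.14, adjusted p = 0.0118).

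Of the enzymes after lanosterol, Msmo1, Cyp51 and Hsd17b7 rose in OE. Msmo1 read 72.6 and 65.3 FPKM at day 2 and 139 and 148 at day 6, a rise of 1.05 (SE 0.14, adjusted p = 0.000416). Cyp51 read 25.6 and 20.6 at day 2 and then 39.5 and 38 at day 6, a rise of 0.73 (SE 0.17, adjusted p = 0.00914). Insig2 rose by 0.85 (SE 0.17, adjusted p = 0.00443), while Insig1, at 18 and 17.9 FPKM and then 41.6 and 35.6, had 1.06 (SE 0.37, adjusted p = 0.0524) and did not pass. Srebf2 (higher at day 6) and Fdps (lower) also passed.

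Among the fatty acid genes in OE, Scd2 had the largest rise of the set, 1.53 (SE 0.23, adjusted p = 0.000859), from 48.3 and 51.9 to 136 and 157 FPKM. Scd1 rose by 1.05 (SE 0.27, adjusted p = 0.0152), and Elovl5, an elongase of polyunsaturated fatty acids (chromosome 9, 77917364 to 77984519), by 0.77 (SE 0.18, adjusted p = 0.0101). Fasn had the largest fall of the set, from 103 and 86.9 to 38.3 and 35.5 FPKM, -1.34 (SE 0.12, adjusted p = 6.91e-05). Acly (chromosome 11, 100476353 to 100528000) fell from 396 and 351 to 225 and 205, by 0.79 (SE 0.14, adjusted p = 0.00229). Acaca, whose enzyme works between theirs, stood at -0.03 (adjusted p = 0.936).

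**Figure D2:**
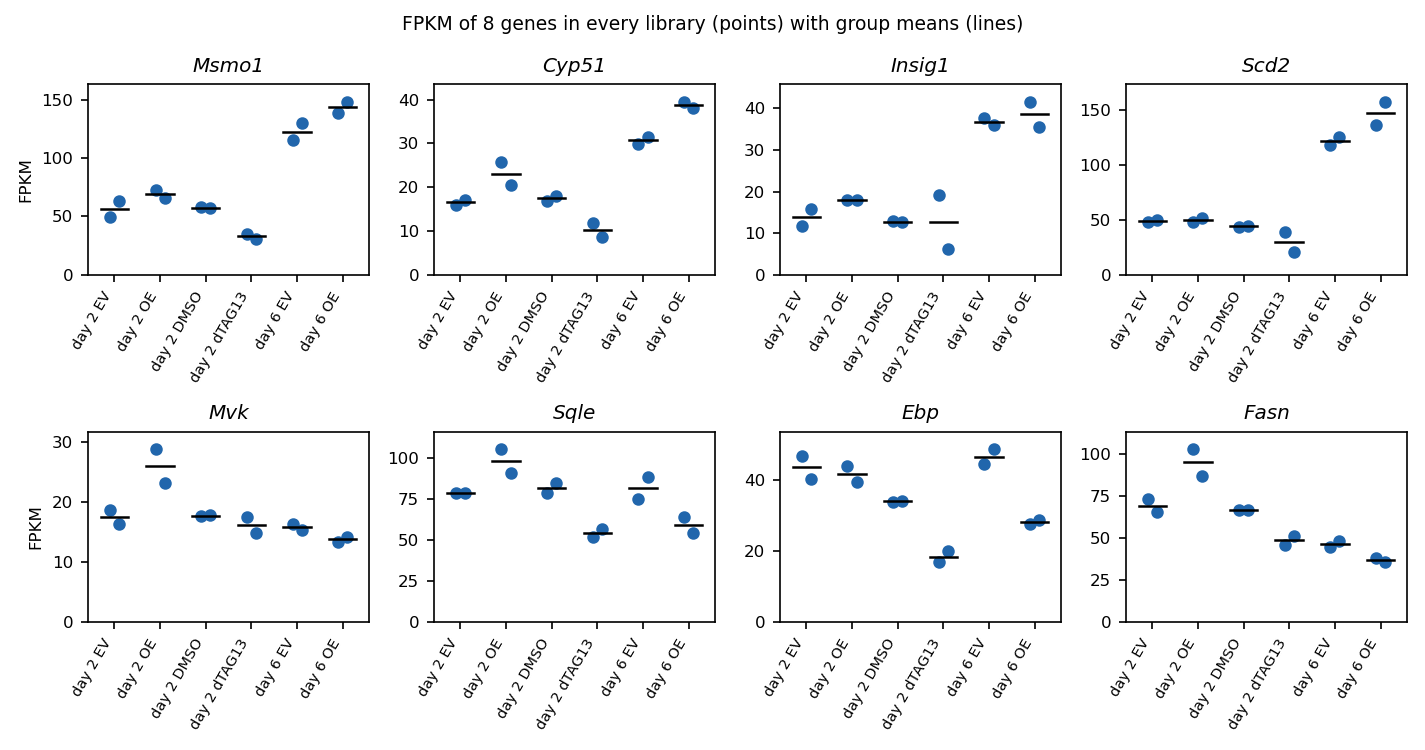
FPKM on the vertical axis, from 0, for 8 genes in each of the 6 groups on the horizontal axis; points are libraries and lines the means of 2. Msmo1, Cyp51, Insig1 and Scd2 in the upper row are higher in every day 6 library than in any day 2 library, and Mvk, Sqle, Ebp and Fasn in the lower row are not.

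Some genes listed as markers of cell types, germ cells among them, moved with the day. Of 10 endoderm markers 3 were in the table. Their summed level was 1.32 to 1.75 FPKM in day 2 EV, 5.23 to 7.72 in day 6 EV, 1.25 to 1.71 in day 2 OE and 6.60 to 8.81 in day 6 OE. Of these, Gata6 stayed at 0.161 FPKM or less in EV and read up to 1.1 in day 6 OE. Of 5 endothelial and blood markers 3 were in the table, and their sum of 32.3 to 33.2 in day 2 EV and 64.4 to 74.1 in day 6 EV was nearly all Pecam1, with Kdr at 0.255 FPKM or less in these libraries. In OE that sum was 34.5 to 38.5 at day 2 and 109.7 to 113 at day 6, again nearly all Pecam1. Gata1 passed between the days in neither EV nor OE, so the sum follows Pecam1 and does not stand for a cell type. The other endoderm, endothelial and blood markers listed were not analysed here. The 8 germ cell markers in the table summed to 205 to 226 in day 2 EV and 144 to 159 in day 6 EV, and single genes moved in both directions. Nanos3, Tfap2c and Dppa3 were called lower at day 6 in EV, with Nanos3 at 37.8 and 53.6 and then at 9.22 and 6.29. Kit was called higher, at 18.2 and 17.3 and then at 46.7 and 41.4. In OE the germ cell markers summed to 157 to 191 at day 2 and 233 to 243 at day 6, with Kit, Prdm14 and Itgb3 called higher and Nanos3 and Dppa3 lower. Neural markers (3 of 4) summed to 95 to 106 at day 2 and 65.6 to 67.5 at day 6 in EV, and to 122 to 129 and then 45 to 47.3 in OE, with Tubb3 and Neurod1 called lower in both. Mesoderm markers (4 of 7) summed to 2.58 to 2.74 and then 5.98 to 6.6 in EV, and to 2.78 to 3.44 and then 6.32 to 6.54 in OE, and neither Eomes nor Hand1 passed. The 6 pluripotent markers, mostly Pou5f1 and Zfp42, summed to 1934 to 1955 at day 2 and 1764 to 1817 at day 6 in EV, and none passed. In OE they summed to 2008 to 2097 and then 1536 to 1558, with Pou5f1 and Zfp42 called lower. Between OE and EV, Nanos3 was called lower in OE at day 2. At day 6, Dppa3, Kit and Nanog were called higher in OE and Zfp42 lower, and no other tested marker passed at either day. The part of these shifts in the changes between days or between OE and EV was not tested. Without dTAG13 replicate 1, 16 of the 33 genes passed in EV (14 higher, background 52.1%) and 22 in OE (13 higher, background 58.8%).

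At day 2, most sterol enzymes read higher in OE than in EV, but none passed the test. By limma 0 of 33 genes passed, against a background of 0.846% of all genes (0.44% higher, 0.406% lower). An unadjusted p under 0.05 was held by 9 of the 33 and by 1483 of all 12059 genes. Of the 18 sterol enzymes, 14 had a positive change, with a median of 0.28 against 0.04 over all genes. The groups did not overlap in 22 of the 33 genes, as in 53.8% of all genes. In 17 both OE libraries lay above both EV libraries, as in 31.1% of all genes, and in 5 both lay below, as in 22.6%. The 2 largest changes among the sterol enzymes were Mvk, at 0.54 (SE 0.16, adjusted p = 0.18), and Mvd, at 0.54 (SE 0.14, adjusted p = 0.138). Mvd read 59.2 and 47 FPKM in EV and 86.3 and 69.4 in OE, and Mvk 18.7 and 16.3 with EV and 28.8 and 23.1 with OE. The OE libraries of both genes lay above the EV libraries, with replicate 1 the higher of the pair.

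Among the regulators at day 2, the largest differences were Insig2, at 0.47 (SE 0.17, adjusted p = 0.28), and Insig1, at 0.37 (SE 0.37, adjusted p = 0.816). Insig2 read 5.48 and 5.88 FPKM in EV and 7.97 and 8.57 in OE, without overlap. Among the fatty acid genes they were Fasn, at 0.45 (SE 0.12, adjusted p = 0.151), and Acly, at 0.43 (SE 0.14, adjusted p = 0.226). Fasn read 73 and 65.3 FPKM in EV and 103 and 86.9 in OE, and Acly 259 and 295 with EV and 396 and 351 with OE. Fasn and Acly do not overlap between the groups, while the elongase gene Elovl6, -0.36, and the desaturase genes Fads2, -0.37, and Scd1, -0.28, had negative values that did not pass. Without dTAG13 replicate 1, 7 of the 33 genes passed, all higher in OE (background 14%): Acat2, Acly, Cyp51, Fasn, Insig2, Mvd and Mvk.

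At day 6, 2 of the 33 genes were lower in OE than in EV and 0 were higher (6.06%, background 3.72% of all genes, with 1.92% higher and 1.79% lower). The groups did not overlap in 25 of the 33 genes, as in 68.8% of all genes. Ebp read 44.6 and 48.9 FPKM in EV and 27.6 and 28.8 in OE, with the OE values well below, and changed by -0.71 (SE 0.14, adjusted p = 0.0222). Fads2, the delta-6 desaturase that starts polyunsaturated fatty acid synthesis (chromosome 19, 10062765 to 10101746), went from 41.1 and 40.5 FPKM in EV to 24.5 and 20.4 in OE, and changed by -0.84 (SE 0.19, adjusted p = 0.0407). Fads1, the delta-5 desaturase, went from 24.4 and 24.6 FPKM in EV to 32.2 and 30.6 in OE, so it was higher in both OE libraries where Fads2 was lower, at 0.34 (adjusted p = 0.812). The call on Fads2 was lost with a pseudocount of 0.1 (adjusted p = 0.0542). Leaving out any 1 of the 4 libraries compared leaves 1 library in a group. None of the 33 then passed, and fewer of all genes did. Over all alternatives the change of Ebp ran from -0.85 to -0.64 and that of Fads2 from -0.97 to -0.71.

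The regulators at day 6 all read higher in OE by small amounts, and 0 of 6 passed. Of them 1 had an unadjusted p under 0.05, as had 2173 of all 12059 genes. Srebf2, which encodes SREBP2, the main driver of sterol genes, stood at 0.28 (SE 0.11, adjusted p = 0.225), with 49.5 and 47.6 FPKM in EV and 58.8 and 59.8 in OE. Srebf1, which encodes SREBP1, the main driver of fatty acid genes, stood at 0.24 (SE 0.17, adjusted p = 0.503), with 21.8 and 21.7 with EV and 26.4 and 25.3 with OE. For both genes the 2 OE libraries lay above the 2 EV libraries. Elovl5 and Elovl6 read higher in OE without passing, Elovl5 at 44.1 and 47.5 FPKM in EV and 72.4 and 75.5 in OE (adjusted p = 0.0719). With dTAG13 replicate 1 left out, 9 genes passed (background 25.3%): Elovl5 and Elovl6 higher, and Acat2, Ebp, Fads2, Fasn, Fdps, Lss and Sqle lower.

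The test of whether the OE effect differed between the days was passed by 0 of the 33 genes by limma (background 0.232%). An unadjusted p under 0.05 was held by 11 of the 33 and by 1303 of all 12059 genes. Of the 18 sterol enzymes, 16 had a lower OE effect at day 6 than at day 2, with a median difference of -0.33 against 0.01 over all genes. The 2 largest differences among them were Acat2, at -0.96 (SE 0.24, adjusted p = 0.142), and Sqle, at -0.78 (SE 0.18, adjusted p = 0.124). Acat2 read 93.6 and 90.7 FPKM in EV and 127 and 113 in OE at day 2, and 122 and 135 in EV and 82.6 and 88.3 in OE at day 6, so OE was the higher group at day 2 and the lower at day 6. Sqle did likewise, at 78.3 and 78.8 against 105 and 90.6 and then 75.1 and 88.3 against 63.6 and 54.2.

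Among the fatty acid genes the largest differences of the OE effect lay in opposite directions, Elovl6 at 0.97 (SE 0.33, adjusted p = 0.294) and Fasn at -0.77 (SE 0.17, adjusted p = 0.117). Elovl6, which extends palmitate, read 20.2 and 26 FPKM in EV and 16.6 and 18.6 in OE at day 2, and 16.7 and 19.6 with EV and 28.3 and 27.9 at day 6. Among the regulators they were Insig1, at -0.30 (adjusted p = 0.911), and Insig2, at -0.28 (adjusted p = 0.775). When dTAG13 replicate 1 was left out, 10 genes passed (background 11.1%): Elovl5 and Elovl6 with a higher OE effect at day 6, and Acat2, Acly, Ebp, Fasn, Fdps, Mvd, Mvk and Sqle with a lower one. The count of 0 thus depends on that library.

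**Figure D3:**
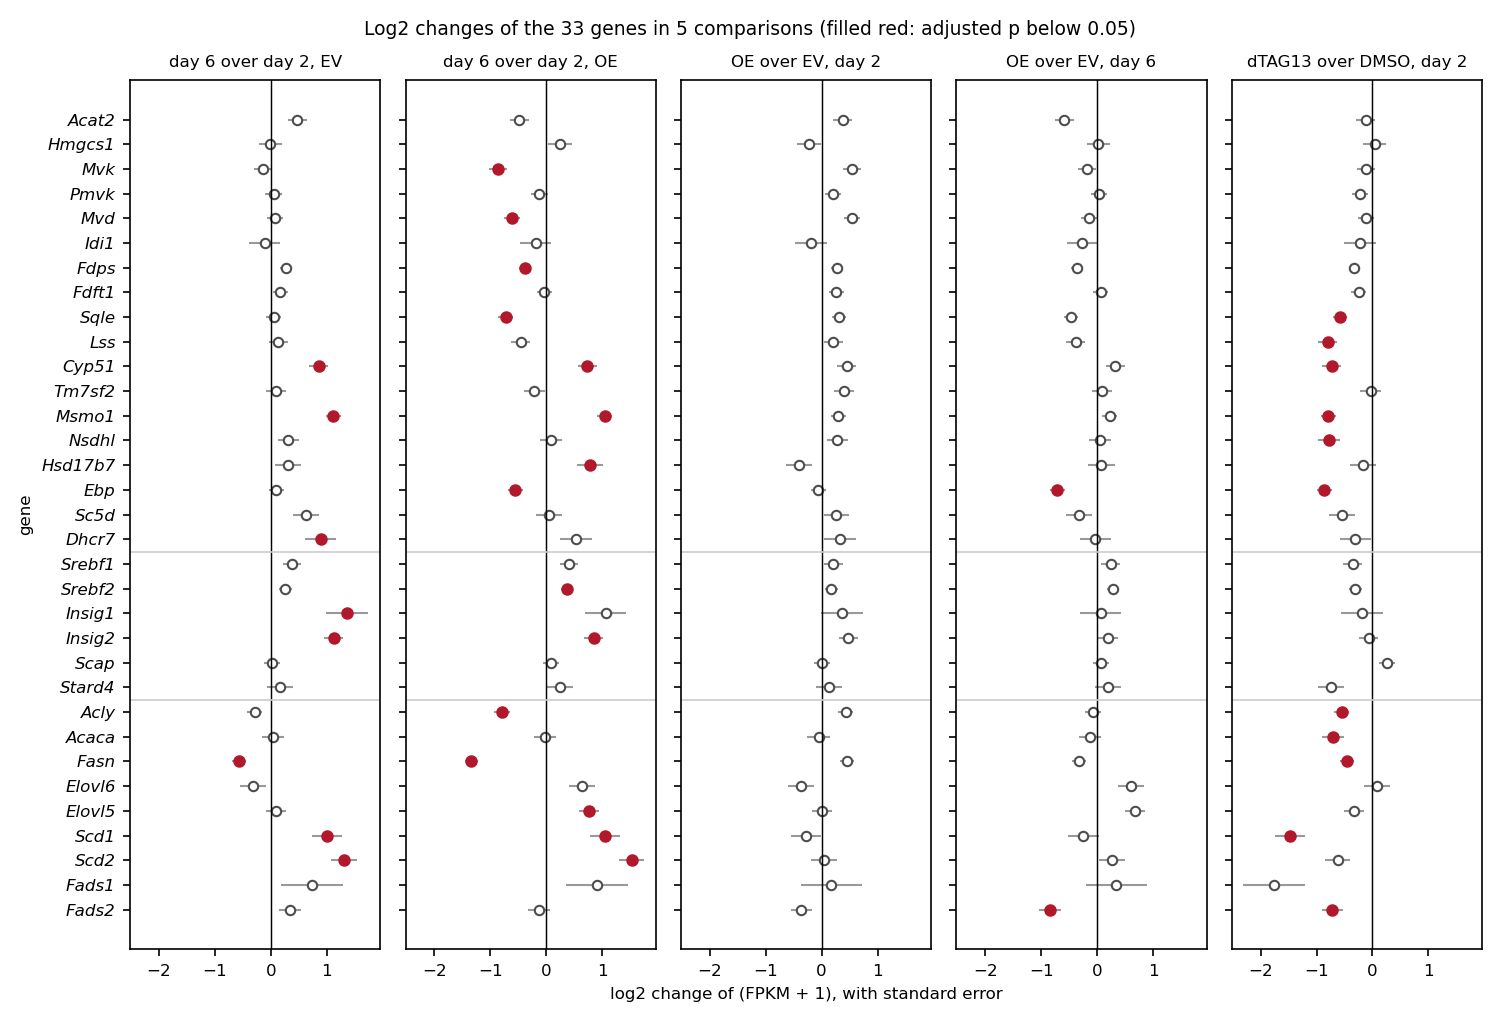
Log2 change of (FPKM + 1) on the horizontal axis with its standard error, for each gene on the vertical axis, in 5 comparisons; filled red points have an adjusted p below 0.05 and open points do not. In the day comparisons the filled points lie on both sides of 0 in OE (8 higher, 7 lower), and with dTAG13 all 11 lie below 0.

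With dTAG13, 6 sterol enzymes and 5 fatty acid genes were lower than with DMSO. The 6 enzymes, Sqle, Lss, Cyp51, Msmo1, Nsdhl and Ebp, act from Sqle onward. Without dTAG13 replicate 1 the earlier enzymes Acat2, Idi1 and Fdps were lower too, at -0.42, -0.67 and -0.41. In replicate 1 itself Acat2 and Idi1 lay above the DMSO mean, by 0.18 and 0.22. Of the 33 genes, 11 fell and 0 rose (33.3%), against a background of 12.2% called, 8.21% lower. Both dTAG13 libraries lay below both DMSO libraries in 21 genes, as in 34.7% of all genes. By group, 6 of 18 sterol enzymes, 5 of 9 fatty acid genes and 0 of 6 regulators fell. An unadjusted p under 0.05 was held by 2 of the regulators and by 3796 of all 12059 genes. The median log2 change was -0.33, while the median of all genes stood at -0.13 and moved to -0.02 when libraries were quantile normalized and to -0.06 with median-ratio scaling. Under each of these scalings 7 of the 33 genes fell and 0 rose, against backgrounds of 12% called with quantile normalization and 10.8% with median-ratio scaling. Of all genes called with dTAG13, 32.8% were higher, against 49.9% and 54.2% under these scalings. With only the DMSO and dTAG13 libraries in the fit, no gene of the 12059 passed, so these calls rest on the spread of all 6 groups. Leaving out either DMSO library leaves 1 DMSO library. None of the 33 then passed, and fewer of all genes did.

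Ebp read 34 and 34.1 FPKM with DMSO and 16.8 and 20 with dTAG13, a fall of 0.86 (SE 0.14, adjusted p = 0.00515). It stood at -0.74 without dTAG13 replicate 1. Msmo1 read 57.8 and 56.8 with DMSO and 34.8 and 30.8 with dTAG13, a fall of 0.79 (SE 0.14, adjusted p = 0.00742), or -0.87 without that library. For both genes the dTAG13 libraries were close to each other and far below DMSO. Lss, the lanosterol synthase, read 15.3 and 15.7 with DMSO and 7.86 and 9.08 with dTAG13, -0.80 (SE 0.17, adjusted p = 0.0159). Sqle read 78.4 and 84.6 with DMSO and 51.7 and 56.9 with dTAG13, -0.58 (SE 0.13, adjusted p = 0.0223). Cyp51 read 16.9 and 18.1 with DMSO and 11.9 and 8.68 with dTAG13, -0.73 (SE 0.17, adjusted p = 0.0252), and Nsdhl, a sterol dehydrogenase on the X chromosome, 15.6 and 13.1 with DMSO and 6.63 and 9.39 with dTAG13, -0.78 (SE 0.19, adjusted p = 0.0305). Without dTAG13 replicate 1 these 4 stood at -0.71, -0.51, -0.93 and -0.55, and all passed.

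Of the 7 enzymes up to farnesyl diphosphate 0 passed with dTAG13 (1 had an unadjusted p under 0.05), with a median of -0.12 against -0.13 over all genes. Leaving out dTAG13 replicate 1 leaves 1 dTAG13 library. Acat2 then stood at -0.42, Idi1 at -0.67 and Fdps at -0.41, and the median of the 7 was -0.35 against -0.17 over all genes. In replicate 1 Acat2 read 105 FPKM against 93 and 92.1 with DMSO, and Idi1 16.8 against 15.6 and 12.9. For these 2 genes the dTAG13 libraries thus lay on either side of DMSO. Mvd read 42.3 and 46.8 FPKM with DMSO and 42.5 and 40.1 with dTAG13, and Mvk 17.6 and 17.8 with DMSO and 17.5 and 14.9 with dTAG13. In Hmgcs1 the dTAG13 libraries lay on either side of DMSO, at 83.8 and 48.6 against 64.3 and 60.2. The 95% interval of its change ran from -0.43 to 0.51. The difference between early and late enzymes was not tested.

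Of the fatty acid genes, Scd1 fell most among those called. It read 7.18 and 7.14 FPKM with DMSO and 1.14 and 3.05 with dTAG13, a fall of 1.47 (SE 0.27, adjusted p = 0.00979), or -1.01 without dTAG13 replicate 1. Acly read 269 and 243 with DMSO and 201 and 150.4 with dTAG13, -0.55 (SE 0.14, adjusted p = 0.0336), and Acaca 7 and 6.7 with DMSO and 3.45 and 4.21 with dTAG13, -0.70 (SE 0.20, adjusted p = 0.0458). Fasn read 66.7 and 66.7 with DMSO and 45.7 and 51.3 with dTAG13, -0.45 (SE 0.12, adjusted p = 0.0415), and Fads2 34.8 and 32.2 with DMSO and 16.7 and 23.8 with dTAG13, -0.72 (SE 0.19, adjusted p = 0.0377). In these 5 genes both dTAG13 libraries lay below both DMSO libraries. Without dTAG13 replicate 1, Fasn stood at -0.37 (adjusted p = 0.059) and Fads2 at -0.48 (adjusted p = 0.0517), neither past the threshold. Under quantile normalization Nsdhl (0.0606), Fads2 (0.066), Fasn (0.0658) and Acaca (0.0589) did not pass either, by adjusted p.

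The 2 dTAG13 libraries disagreed on several genes. Insig1 read 19.2 and 6.21 FPKM with dTAG13 against 12.9 and 12.7 with DMSO, so replicate 1 lay above both DMSO libraries and replicate 2 below. Fads1 read 1.13 and 9.8 against 15.6 and 14.9, where replicate 1 was the lower by far, and its change of -1.76 did not pass (adjusted p = 0.0635); it was -0.59 and passed without replicate 1. Scd2 read 38.5 and 20.4 against 43 and 44.6, lower in replicate 2. Below the DMSO mean lay 24 of the 33 genes in replicate 1 and 31 in replicate 2, against 53.9% and 69.1% of all genes. In both libraries 23 of the 33 were below it, as were 40.8% of all genes. Without replicate 1, 19 of the 33 genes fell and 0 rose (background 23.3%), now with Scd2 at -1.06 and Insig1 at -0.93 among them. Without replicate 2, 18 passed, 15 lower and 3 higher (background 60.2%).

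**Figure D4:**
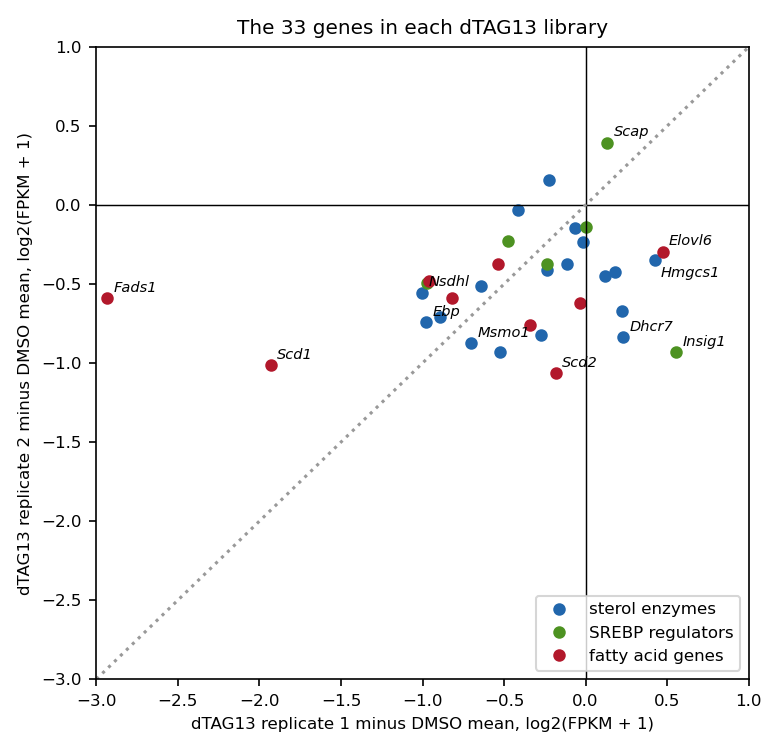
Each point is a gene; the axes give its log2(FPKM + 1) in dTAG13 replicate 1 (horizontal) and replicate 2 (vertical) minus the mean of the DMSO libraries, and the dotted line marks equal values. Of the 33 genes 23 lie in the lower left, below DMSO in both libraries, while Insig1, Dhcr7, Hmgcs1 and Elovl6 are among those above DMSO in replicate 1 only.

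The regulators with dTAG13 had their largest changes in Stard4, -0.73 (SE 0.23, adjusted p = 0.066), and Srebf1, -0.35 (SE 0.17, adjusted p = 0.175). Stard4 read 5.06 and 4.01 FPKM with DMSO and 1.81 and 2.91 with dTAG13, a low gene throughout. Srebf2 read 37.2 and 37 with DMSO and 31.4 and 28.4 with dTAG13, below DMSO in both libraries (adjusted p = 0.105), and passed as lower without dTAG13 replicate 1, at -0.38 (adjusted p = 0.0407). Scap was the only regulator with a positive value, 0.26 (adjusted p = 0.234), at 22.7 and 21.4 with DMSO and 24.3 and 29.3 with dTAG13 FPKM. Beside these results, mesoderm markers (4 of 7 in the table) summed to 5.14 to 6.72 FPKM with DMSO and 7.94 to 12.5 with dTAG13. Hand1 made up 2.88 and 4.16 FPKM of this with DMSO and 7.94 and 10.7 with dTAG13, while Eomes was at 2.14 and 1.81 with DMSO and at 0 and 1.47 with dTAG13, and Mixl1 was at 0.28 or less. Trophoblast markers (2 of 4) summed to 4.18 to 4.38 with DMSO and to 2.64 and 14.3 in the dTAG13 libraries. Neural markers (3 of 4, mostly Tubb3) summed to 76.8 to 79.9 with DMSO and 54.3 to 64.8 with dTAG13, with Tubb3 and Pax6 called lower and Neurod1 called higher, at 1.2 and 0.964 FPKM with DMSO and 11.6 and 7.83 with dTAG13. The 8 germ cell markers summed to 196 to 232 with DMSO and 254 to 274 with dTAG13, with Tfap2c and Dppa3 called higher and Prdm14 and Dnd1 called lower. The 3 endoderm markers were all at 0 in dTAG13 replicate 1 and summed to 1.36 in replicate 2, against 1.25 to 1.46 with DMSO. The 6 pluripotent markers summed to 1590 to 1790 with DMSO and 1564 to 1617 with dTAG13, and of them only Esrrb passed, as lower. Endothelial and blood markers (3 of 5, nearly all Pecam1) summed to 50.5 to 59.1 with DMSO. With dTAG13 they summed to 33.6 in replicate 1 and 66.3 in replicate 2. Gata1 was called lower, at 1.05 and 0.786 FPKM with DMSO and 0.0192 and 0.256 with dTAG13. Among the mesoderm markers Hand1 was called higher by limma (adjusted p = 0.0149). The part of all these markers in the falls was not tested.

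The DMSO and EV groups, the 2 sets of day 2 control cells, were compared as a check on these genes. They were not alike throughout: by limma Tex10 itself was lower with DMSO than in EV, at -1.13 (SE 0.15, adjusted p = 0.0104). That was a larger difference than the -0.53 of dTAG13 against DMSO. The mesoderm marker Hand1 was called higher with DMSO, at 1.89 (adjusted p = 0.0104). By limma 0 of 33 passed (background 0.39%), and the median change was 0.01. An unadjusted p under 0.05 was held by 2 of the 33 and by 1076 of all 12059 genes. The groups did not overlap in 15 of the 33 genes, as in 52.2% of all genes. The largest values were Hmgcs1, -0.41 (SE 0.21, adjusted p = 0.646), and Hsd17b7, -0.41 (SE 0.23, adjusted p = 0.69), among the sterol enzymes. They were Insig2, 0.59 (SE 0.17, adjusted p = 0.314), and Scap, 0.17 (SE 0.14, adjusted p = 0.855), among the regulators, and Scd1, 0.30 (SE 0.27, adjusted p = 0.864), and Acaca, 0.25 (SE 0.20, adjusted p = 0.824), among the fatty acid genes. Insig2 read 5.48 and 5.88 FPKM in EV, 7.97 and 8.57 in OE and 9.31 and 8.76 with DMSO, so EV had its lowest day 2 values. Without dTAG13 replicate 1, Hmgcs1 (lower) and Insig2 (higher) passed, 2 of 33 (background 8.08%). Comparisons share libraries: those of OE at day 2, of the days in EV and of DMSO share day 2 EV, and those of dTAG13 and of DMSO share DMSO. Those of OE at day 2 and of the days in OE share day 2 OE. Those of OE at day 6 share its groups with those of the days, and the difference of OE effects uses all EV and OE groups. The high day 2 OE values of Mvk, Mvd, Sqle, Fasn and Acly thus enter several comparisons, which are not separate findings.

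In level, the order of the groups differed between genes. Srebf2 had its lowest mean with dTAG13, 29.9 ± 2.14 FPKM (SD, n = 2), then 37.1 ± 0.163 with DMSO, 40.4 ± 3.59 in day 2 EV, 45.7 ± 2.21 in day 2 OE, 48.5 ± 1.36 in day 6 EV and 59.3 ± 0.693 in day 6 OE. The libraries of dTAG13 lay below all others and those of day 6 OE above all others, while DMSO and day 2 EV differed by less than 1 SD of EV. Scd2 had 29.5 ± 12.8 with dTAG13, 43.8 ± 1.09 with DMSO, 48.5 ± 1.42 and 50.1 ± 2.58 in day 2 EV and OE, and 122 ± 5.57 and 147 ± 14.8 in day 6 EV and OE. The EV and OE libraries overlapped at day 2. Over the 6 group means, the genes most like Srebf2 among 7759 others with a mean of 5 FPKM or more were Sugp2, Mtmr2 and Akr7a5 (Pearson r of 0.996, 0.996 and 0.995). Srebf1 was the nearest of the 33, at 0.992. Those most like Scd2 were Numb, Gmpr and Flot2 (0.997, 0.996 and 0.996), and Msmo1 was the nearest of the 33, at 0.986. With 6 points per gene such values describe these libraries only.

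Of 70 other genes of sterol and fatty acid uptake, use and storage, 60 were in the table and 59 tested. From day 2 to day 6, 13 rose and 3 fell in EV (27.1%) and 27 rose and 2 fell in OE (49.2%), beside backgrounds of 23.7% and 32.3%. Fabp3, a fatty acid binding protein gene, rose by 0.90 (SE 0.09, adjusted p = 0.000282) in EV and 1.82 (SE 0.09, adjusted p = 4.54e-06) in OE. Scarb1, the receptor for high-density lipoprotein, rose by 1.06 (SE 0.11, adjusted p = 0.000305) and 1.49 (SE 0.11, adjusted p = 2.89e-05), from 32.6 and 28.2 to 65.2 and 63.3 FPKM in EV. Acsl5, which activates fatty acids, fell by 1.9 (SE 0.17, adjusted p = 0.000135) in EV and 1.63 (SE 0.17, adjusted p = 0.000138) in OE, from 23.1 and 26.3 to 5.86 and 5.89 FPKM in EV.

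In OE against EV, 0 of these 59 genes passed at day 2 and 5 rose at day 6 (8.47%, background 3.72%). At day 2, 9 of the 59 had an unadjusted p under 0.05, as had 1483 of all 12059 genes. At day 6, Fabp3 read 356 and 329 FPKM in EV and 716 and 696 in OE, a rise of 1.04 (SE 0.09, adjusted p = 0.00124). Cpt1a, which admits fatty acids to mitochondria for burning, read 39.3 and 37.1 with EV and 83.6 and 82.5 with OE, a rise of 1.1 (SE 0.16, adjusted p = 0.00941), and Fabp5, another binding protein gene, rose by 1.28 (SE 0.23, adjusted p = 0.0181). With dTAG13, 2 rose and 12 fell (23.7%, background 12.2%). Thrsp, a lipogenic regulator, fell by 1.95 (SE 0.31, adjusted p = 0.00531); it was listed at 0 in dTAG13 replicate 1 and read 1.08 in replicate 2, against 5.14 and 4.07 with DMSO. Fabp3 rose by 0.75 (SE 0.09, adjusted p = 0.00187), from 240.3 and 223 to 419 and 365 FPKM. Between DMSO and EV 0 of the 59 passed. Of them 8 had an unadjusted p under 0.05, as had 1076 of all 12059 genes.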

How the data were processed

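RNA of 12 libraries in 6 groups of 2 was sequenced after poly(A) enrichment, per the labels. The deposited table gives FPKM by the authors for 12955 genes. Per the submitters' processing notes, FastQC 0.10.1, Trim Galore 0.6.3, cutadapt, STAR 2.7.6a, Cufflinks 2.2.1 and mm10 were used. An added 1 was subtracted from the deposited values. It was read from their precision, since 7 or more digits are given by 90.1% of those from 1.1 to 2 and by 0% of those from 2 to 10. No read depth is stated, and the FPKM of a library sum to between 550230 and 673435.

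The test was limma 3.58.1 (R 4.3.3), run for the 12059 genes that reach 1 FPKM in 2 or more libraries. It used log2(FPKM + 1), a prior variance with a trend, 1 model of 6 groups (6 residual and 3.86 prior degrees of freedom) and Benjamini-Hochberg adjustment over all tested genes (threshold 0.05). Errors are model standard errors; levels are mean ± SD. The code was tested on simulated data. Positions come from GENCODE M21 (mm10). Log2 changes are printed for genes that passed (up to 12), for the 2 largest per group where none did, and for up to 3 other pathway genes; the changes given beside them, and those of Fads1, Scap, Acaca and Elovl genes, were picked with their values in view. The 33 genes and the lists were chosen with earlier results of these data known. Python 3.11.15, pandas 2.3.3, numpy 2.4.6 and matplotlib 3.10.9 were used. Alternatives were another pseudocount, no filter, quantile and median-ratio scaling, sample quality weights, a fit of only the groups compared, a replicate block and leaving out each library. Fut4 and the other listed symbols without a row were not analysed here. A result on another pathway gene that this rule would name is not reported here.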

Additional observations from a re-analysis of the deposited data

Results flagged for a closer look

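The OE effect on Fabp3, a fatty acid binding protein gene outside the 33, differed between the days in the test of the difference itself: it was 0.92 higher at day 6 than at day 2 (SE 0.13, adjusted p = 0.0339). Fabp3 read 186 and 180.3 FPKM in EV and 205 and 194 in OE at day 2, and at day 6 356 and 329 with EV and 716 and 696 with OE. It passed under 8 of 16 alternatives, with adjusted p values from 0.000459 to 0.232.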

How the results depend on the processing

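Counts of the 33 genes that passed moved most with the estimate of the spread. The share of all genes that passed stands in brackets, and it moved too. With only the groups compared they were 4 for OE at day 2 (8.56%), 12 for OE at day 6 (28.4%) and 10 for the difference of OE effects (9.72%). They were 0 for dTAG13 (0%), 14 for the days in EV (44.7%) and 23 in OE (62.6%). With sample quality weights they were 6 (8.46%), 12 (32.3%), 10 (10.6%), 0 (0.166%), 14 (46.3%) and 23 (62.8%) in that order. For DMSO over EV these weights gave 1 (4.83%). Under quantile normalization they were 6 for OE at day 6 (8.3%), 1 for the difference (1.14%) and 7 for dTAG13 (12%). Under median-ratio scaling they were 4 for OE at day 6 (4.88%) and 7 for dTAG13 (10.8%). A pseudocount of 0.1 gave 1 for OE at day 6 (2.82%). The main fit did not treat the replicate numbers as pairs. Over 15 pairs of groups, deviations of same-numbered libraries correlated from -0.13 to 0.25, and 4 exceeded 0.1. The highest value was that of day 2 EV with day 6 EV. With 2 libraries a group, this check cannot show whether some groups were paired. The fit with the replicate number as a block gave 1 for OE at day 6 (3.08%) and moved no other count of the 33 by over 1.5 times. Leaving out 1 library at a time gave from 0 to 7 for OE at day 2, 0 to 9 for OE at day 6, 0 to 10 for the difference, 0 to 19 for dTAG13, 4 to 16 for the days in EV, 6 to 22 in OE and 0 to 2 for DMSO over EV; the highest values are those without dTAG13 replicate 1. Of dTAG13, 0 calls were left without DMSO replicate 1 or without DMSO replicate 2. In the day comparisons, the lowest EV count of 4 came without D2_EV replicate 1 or D6_EV replicate 1, and the lowest OE count of 6 without D6_OE replicate 2. Of the 72 changes followed through the alternatives, which are those the naming rule gives, 0 reversed direction. Outside these, several changes with dTAG13 that the text describes did. Insig1 was -0.93 without dTAG13 replicate 1 and 0.55 without replicate 2. In the same order Hmgcs1 was -0.35 and 0.42, Acat2 -0.42 and 0.18, and Idi1 -0.67 and 0.22. Dhcr7 was -0.84 and 0.23, and Elovl6 -0.29 and 0.47. Of the 72 followed changes, 49 passed in the main fit. Of these 49, 34 also passed with only the groups compared and 34 with sample quality weights. Of 15 that use the DMSO libraries, 2 passed without DMSO replicate 1 and 3 without DMSO replicate 2. Of the 49, 45 also passed under quantile normalization, 45 under median-ratio scaling, 44 with a pseudocount of 0.1, 48 without the filter on low values and 43 with the block. Depth is unknown, so no limit of detection can be given.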
